A study of Mus musculus with 6 samples.

Results

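The genes examined here encode the subunits of the proteasome, and they were taken as every row of the deposited expression table whose symbol begins with Psma, Psmb, Psmc, Psmd or Psme followed only by digits. This gave 44 rows of 22381, for 43 symbols, since Psmd14 stands on 2 rows. The rule used names and no measured value. RNA was sequenced from LSK cells, a bone marrow fraction positive for c-Kit and Sca-1 and free of mature lineage markers, in which the stem cells of the blood and their first progenitors are found. The 6 samples came from C57BL/6 mice aged 8 to 12 weeks, 3 of them labelled Tgif1-/- and 3 labelled wild type (Tgif1+/+ in the protocol), with about 200 ng of RNA taken from the cells. Tgif1 encodes a homeodomain repressor of TGF-beta and retinoic acid signalling. The labels do not say which part of the gene was removed, or whether each sample stands for its own mouse, so the spread behind the p-values may be technical.

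The proteasome is the barrel-shaped protease that degrades ubiquitin-tagged proteins. Its core particle stacks rings of alpha subunits, which form the gate, around rings of beta subunits, some of which carry the proteolytic sites. A regulatory particle caps the core, with a base that contains a ring of ATPases for unfolding substrates and a lid that removes ubiquitin. In cells of the blood and immune system, alternative catalytic subunits can replace the standard ones to form the immunoproteasome, which favours peptides suited to MHC class I. The subunits assemble in fixed numbers, and their genes are known to be expressed together.

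Each gene had 1 FPKM value per group (fragments scaled to transcript length and mapped total), so no value per sample, SD or depth could be read. In each pair of values the Tgif1-/- label comes first, and log2 ratios divide it by the value labelled wild type. The targeted gene did not bear out the labels: Tgif1 was at 88.6 and 71.5 FPKM in the authors' values, and its test failed, so directions are between groups as labelled. The LSK markers Kit and Ly6a, which encodes Sca-1, were at 193 and 202 FPKM and at 119.6 and 88.9 FPKM. Among 9 genes of mature lineages the group values ran from 0.0594 to 35.4 FPKM, with Itgam, a myeloid integrin, the highest. A gene was called where the authors' status was tested and their q was at or under 0.05, and 71 of 10730 tested genes met this, 31 upward (0.289%) and 40 downward (0.373%) under the Tgif1-/- label.

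No proteasome member was called by Cuffdiff: of the 27 tested rows, 0 reached that q in the authors' deposited table, where 0.662% of all tested genes did. At an unadjusted p under 0.05 there were 4 members, 14.8% of those tested, against 5.41% of all tested genes. Psma5, Psmd6 and Psmb8 were higher (3 members, 11.1%, with 1.85% of all tested genes) and Psma8 was lower (3.55% of all tested genes). The Cuffdiff errors were also raised, gene by gene, to at least the median of genes at like expression. Psma8 alone then stayed under 0.05, at 0.0177, and the p-values of Psma5, Psmd6 and Psmb8 went to 0.139, 0.193 and 0.307. That left 1 of 27 members (3.70%), with 2.38% of tested genes under the same errors. The tests of the remaining 17 rows failed in the authors' run, so those members could not be called.

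The members were among the more abundant transcripts of these cells. Of the 44 rows, 40 reached 20 FPKM under both labels, and 38 lay in the upper 20% of all rows by mean level. Those outside it were Psmd3, Psmd9, Psmd10, the second Psmd14 row, Psma8 and Psmb11. The differences between groups were small beside these levels: 39 of 44 rows differed by less than 1.2-fold and 42 by less than 1.5-fold. The 5 rows beyond 1.2-fold were Psma5, Psmb9, Psmd10, Psma8 and the second Psmd14 row. Among tested genes whose 2 values both reached 20 FPKM, 93.4% of 3761 differed by less than 1.2-fold, as did 21 of the 24 such members. The median absolute log2 ratio was 0.08 in both sets.

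**Figure D1:**
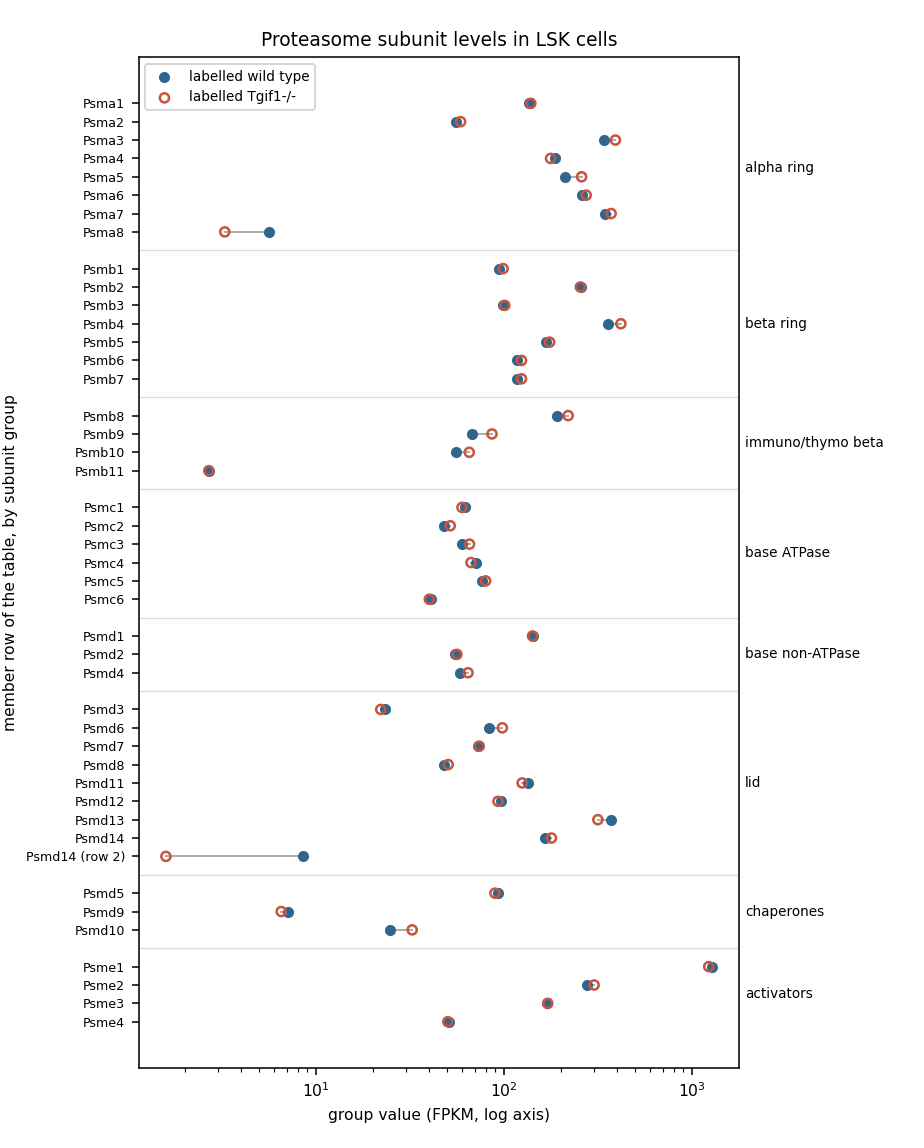
Level of each proteasome member in FPKM (log axis) in the group labelled wild type (filled) and the group labelled Tgif1-/- (open), by subunit group, 1 authors' value per group and no error. The paired points lie close together except for Psma8 and the second Psmd14 row, and Psme1 is the highest at 1229.8 and 1278 FPKM.

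By value, more members stood higher than lower in the group labelled Tgif1-/-, 27 against 17 over all rows and 17 against 10 over tested rows. The corresponding share was 63.0% of tested members and 42.6% of all tested genes. The median log2 ratio was 0.05 over all rows and 0.03 over tested rows, with -0.03 over tested genes. With log2 ratios centred on the tested genes, 31 of 44 rows stood higher. The model error of a single tested member had a median of 0.20 on the log2 scale, which is not the error of a median over members. This error is the one implied by the authors' test statistic and is not a spread measured between samples.

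The alpha ring of the core was represented by Psma1 to Psma7 and by Psma8, a relative of Psma7 known from the testis. Psma1 was at 139 and 136 FPKM, Psma2 at 58.8 and 55.9, Psma3 at 392 and 342, and Psma4 at 177 and 186. Psma5 was at 259 and 212 FPKM, Psma6 at 274 and 261, and Psma7 at 372 and 345. All but Psma4 of these 7 stood higher in the group labelled Tgif1-/-, and their summed level was 1671 and 1536 FPKM. Within each group the FPKM of the 7 subunits, which assemble in equal numbers, spanned 6.67-fold and 6.16-fold, from Psma2 to Psma3 in the group labelled Tgif1-/- and from Psma2 to Psma7 in the group labelled wild type. Over all 8 genes the median log2 ratio was 0.07.

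Psma5 (ENSMUSG00000068749) had the smallest p of the members that stood higher. Its log2 ratio was 0.29 (1.23-fold) with a 95% interval of 0.05 to 0.53 and an implied standard error of 0.12. Cuffdiff in the authors' deposited table gave it p = 0.0174 and q = 0.582, so it was not called. Psma4, among the lower-standing tested members with the smallest p, had a log2 ratio of -0.07 with an interval of -0.32 to 0.18 (p = 0.576 in the authors' deposited table, Cuffdiff).

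Psma8 (ENSMUSG00000036743, chromosome 18) was the member with the smallest p and stood far below its ring partners in level. Its authors' values were 3.27 and 5.63 FPKM, a log2 ratio of -0.78 (0.582-fold) with a 95% interval of -1.30 to -0.26 and an implied standard error of 0.27. Cuffdiff in the authors' deposited table gave it p = 0.00343 and q = 0.249. With a pseudocount of 1 FPKM the log2 ratio was -0.63. Psma7, which resembles it in sequence, was at 372 and 345 FPKM, so reads shared between them would leave the low value of Psma8 uncertain.

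The standard beta ring had 7 members, of which Psmb5, Psmb6 and Psmb7 carry the proteolytic sites. Psmb1 was at 99.0 and 93.7 FPKM, Psmb2 at 255 and 258, Psmb3 at 101 and 98.4, and Psmb4 at 419 and 359. The catalytic subunits Psmb5, Psmb6 and Psmb7 were at 175 and 168 FPKM, at 124 and 118 FPKM and at 124 and 117 FPKM. Of the 7, 6 stood higher in the group labelled Tgif1-/- and Psmb2 lower, with a median log2 ratio of 0.07 and a sum of 1296 and 1213 FPKM. Psmb6 had a log2 ratio of 0.07 with a standard error of 0.19 and an interval of -0.30 to 0.44, and the authors' deposited table gave p = 0.702 and q = 1.00 (Cuffdiff). Psmb5 and Psmb7, whose tests failed, had log2 ratios of 0.06 and 0.08. The intervals of Psmb1 and Psmb3 also covered 0, and the largest log2 ratio, 0.22 for Psmb4, had no test. Level spanned 4.23-fold and 3.83-fold within the ring, from Psmb1 to Psmb4 in both groups.

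**Figure D2:**
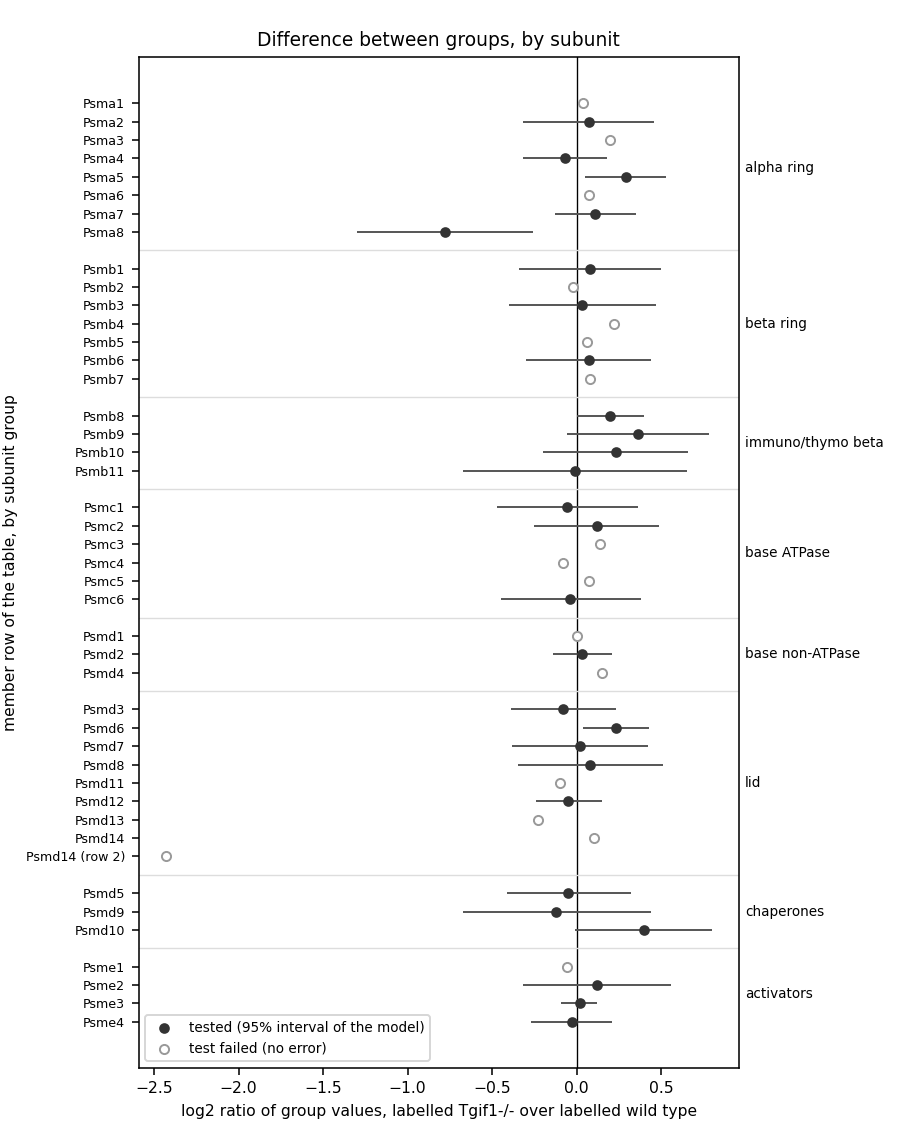
Log2 ratio, Tgif1-/- label over wild-type label, for each member, by subunit group. Filled points are tested rows with the 95% interval implied by the authors' model, and open points are rows whose test failed; Psma5, Psmd6 and Psma8 have intervals that leave out 0, and that of Psmb8 has its lower end at 0.00.

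Immunoproteasome subunits had the highest median of the subunit groups. Psmb8, which replaces Psmb5, was at 219.7 and 191 FPKM. Psmb9, which replaces Psmb6, was at 86.4 and 67.3 FPKM, and Psmb10, which replaces Psmb7, was at 65.4 and 55.8 FPKM. All 3 were tested and stood higher in the group labelled Tgif1-/-, and none was called. The thymoproteasome subunit Psmb11, known from the cortical epithelium of the thymus, was at 2.69 and 2.71 FPKM. With it, the median log2 ratio over the 4 genes was 0.22, and it was 0.23 over the 3 immunoproteasome subunits, whose level summed to 371 and 314 FPKM.

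The log2 ratio of Psmb9 was 0.36 with a 95% interval of -0.06 to 0.78 and an implied standard error of 0.21 (p = 0.0924 in the authors' deposited table, Cuffdiff). That of Psmb8 was 0.20 with a standard error of 0.10 and an interval of 0.00 to 0.40 (p = 0.0490 and q = 0.915 in the authors' deposited table, Cuffdiff). That of Psmb10 was 0.23 with a standard error of 0.22 and an interval of -0.20 to 0.66 (p = 0.297 in the authors' deposited table, Cuffdiff). These intervals overlap those of the standard ring, and a difference between the groups of subunits was not tested.

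Levels were set side by side within each catalytic pair, since FPKM is scaled to transcript length. This scaling alone does not make 2 genes fully comparable: the alpha subunits, which assemble in equal numbers, spanned 6.67-fold and 6.16-fold. Psmb8 made up 55.7% of the summed FPKM of Psmb8 and Psmb5 in the group labelled Tgif1-/- and 53.2% in the group labelled wild type. Psmb9 made up 41.1% and 36.3% of its pair with Psmb6, and Psmb10 34.5% and 32.2% of its pair with Psmb7. By FPKM the immunoproteasome gene was the higher of a pair only for Psmb8, at 1.26 and 1.14 times Psmb5. No error was available for these ratios, so which transcript was more abundant was not tested. The log2 ratio of the immunoproteasome gene exceeded that of its partner by 0.15, 0.29 and 0.15, and no error was computed for these differences. Psmb5 and Psmb7 were among the failed tests. Psmb9 and Psmb6, the pair with the difference of 0.29, had implied standard errors of 0.21 and 0.19.

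**Figure D3:**
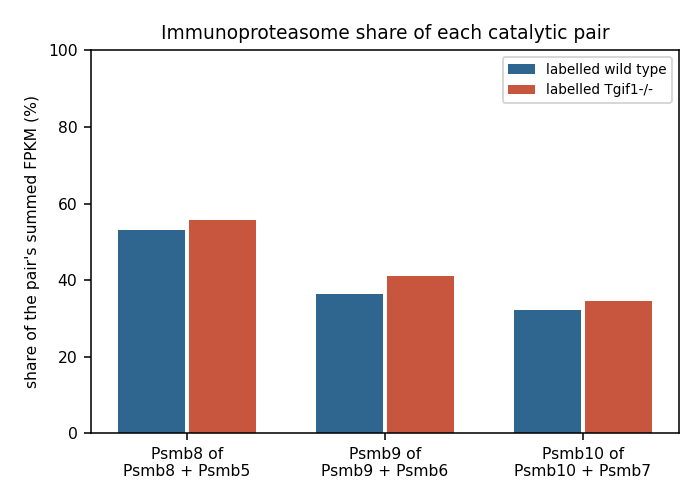
Share of the immunoproteasome gene in the summed FPKM of each catalytic pair (percent, axis from 0), for the group labelled wild type and the group labelled Tgif1-/-, 1 value per group. The share is larger in the group labelled Tgif1-/- for each of the 3 pairs, by the most for Psmb9 (41.1% and 36.3%).

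Psmb8 and Psmb9 lie side by side in the MHC region of chromosome 17, interleaved with the peptide transporter genes Tap1 and Tap2, and the authors' table lists each within a block shared with its neighbours. The transporter genes did not stand higher: Tap1 was at 70.5 and 72.5 FPKM and Tap2 at 22.8 and 24.6 FPKM. A further entry in the block of Psmb9, CR974422.1, was at 497 and 420.4 FPKM, so the value of Psmb9 may depend on how reads of the block were divided, which was not tested. By the positions in the table the pair lies 36.8 and 36.9 Mb from Tgif1 on the same chromosome. The 250 bases before the RefSeq start of both genes (GRCm38.p6) are shown because these adjacent immunoproteasome genes had the largest difference (Psmb9) and the smallest error (Psmb8) of their group. Psmb9 is on the minus strand at chr17:34187331-34187580 and Psmb8 on the plus strand at chr17:34197945-34198194. Capitals mark matches on either strand to TGANNNNGC and CCAAT (NF-Y box). TGANNNNGC is a loose form of the antioxidant response element core, the kind of site bound by the proteasome regulator Nfe2l1. It allows any base at each N, so a match need not be such a site.
Psmb9: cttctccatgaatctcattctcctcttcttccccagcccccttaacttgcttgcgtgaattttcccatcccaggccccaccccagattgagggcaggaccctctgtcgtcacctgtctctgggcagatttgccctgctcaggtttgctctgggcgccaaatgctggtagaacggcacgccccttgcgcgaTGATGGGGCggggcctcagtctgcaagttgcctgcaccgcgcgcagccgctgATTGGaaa
Psmb8: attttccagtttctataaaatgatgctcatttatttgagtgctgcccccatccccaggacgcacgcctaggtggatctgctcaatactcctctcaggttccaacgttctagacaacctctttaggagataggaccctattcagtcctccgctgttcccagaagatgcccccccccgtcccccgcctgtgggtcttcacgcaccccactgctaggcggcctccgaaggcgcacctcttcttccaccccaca

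In Psmb9 the capitals are 1 match to TGANNNNGC at bases 60 to 52 before the start and 1 match to CCAAT, on the opposite strand, at bases 8 to 4 before it. The printed Psmb8 bases held no match to the 4 motifs searched, and a match to TGANNNNGC lay after its start. Promoters of 36 members were found by symbol, and the search covered 300 bases each, 250 before and 50 after the start. TGANNNNGC matched in 21 of 36 (58.3%) and in 45.0% of all 27025 symbols. CCAAT matched in 14 (38.9% and 41.1%). GAAA followed by any 2 bases and GAAA, the interferon response element core, matched in 4 (11.1% and 3.99%), namely Psmb3, Psmd4, Psmd9 and Psme1. TGTCA, the core of the TGIF site, matched in 13 (36.1% and 49.3%). These are letter matches, which may overlap each other, and not measured binding.

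The ATPase ring of the base, which unfolds substrates and threads them into the core, was the most even part in level. Psmc1 was at 59.8 and 62.1 FPKM, Psmc2 at 51.8 and 47.7, and Psmc3 at 65.6 and 59.7. Psmc4 was at 66.8 and 70.8 FPKM, Psmc5 at 79.9 and 76.1, and Psmc6 at 40.1 and 41.1. Level spanned 1.99-fold and 1.85-fold, the narrowest of the subunit groups in both conditions. Of the 6, 3 stood higher and 3 lower, the median log2 ratio was 0.02, and the sum was 364 and 358 FPKM. The 3 tested members had log2 ratios of -0.06 for Psmc1, 0.12 for Psmc2 and -0.04 for Psmc6, each with a standard error near 0.20 and an interval that covered 0.

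In the rest of the base, the scaffold subunits Psmd1 and Psmd2 were at 142 and 143 FPKM and at 56.2 and 55.0 FPKM. The ubiquitin receptor Psmd4 was at 64.4 and 58.2 FPKM. Psmd2, the only one tested, had a log2 ratio of 0.03 with an interval of -0.14 to 0.21.

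The lid had 8 genes on 9 rows. Psmd3 was at 22.1 and 23.4 FPKM, the lowest main row of the lid, and Psmd13 was at 316 and 371 FPKM, the highest. Psmd6 was at 98.1 and 83.4 FPKM, Psmd7 at 73.9 and 73.1, Psmd8 at 50.5 and 47.8, Psmd11 at 125 and 134, and Psmd12 at 93.0 and 96.0. Without the second Psmd14 row, 4 stood higher and 4 lower, the median log2 ratio was -0.01, and the sum was 957 and 995 FPKM. The lower sum under the Tgif1-/- label rested on Psmd13, whose log2 ratio was -0.23. The test of Psmd13 failed, and its listed position was shared with other entries. Over all 9 rows the median was -0.05. Among the tested lid genes, Psmd3 had a log2 ratio of -0.08 with an interval of -0.39 to 0.23 (p = 0.603 in the authors' deposited table, Cuffdiff).

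Psmd6 (ENSMUSG00000021737), a structural lid subunit, had a log2 ratio of 0.23 (1.18-fold) with a 95% interval of 0.04 to 0.43 and an implied standard error of 0.10. Cuffdiff in the authors' deposited table gave it p = 0.0194 and q = 0.599, so this gene was not called.

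Psmd14, the deubiquitinase of the lid, stood on 2 rows with the same listed position. The main row (ENSMUSG00000026914) was at 179 and 166 FPKM, and the second (ENSMUSG00000090649) at 1.59 and 8.58 FPKM. The log2 ratio of the second row was -2.43, the largest in size of any member row, and it was -1.89 with a pseudocount of 1. Both tests failed, so no error goes with either value. Summed over both rows Psmd14 was at 180.5 and 175 FPKM, a log2 ratio of 0.04, and how reads were divided between the rows cannot be told from group values. The identifier of the second row, like that of Psmb9, was not found in a reference list of gene names. That list held 42 of the 44 member identifiers.

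The base assembly chaperones, which help the ATPase ring form and then leave, differed widely in level. Psmd5 was at 89.6 and 92.5 FPKM and Psmd9 at 6.53 and 7.09 FPKM. Psmd10, also known as gankyrin, was at 32.5 and 24.7 FPKM, a log2 ratio of 0.40 (1.32-fold), the highest of all member rows. Its implied standard error was 0.21 and its interval -0.01 to 0.80 (p = 0.0532 and q = 0.949 in the authors' deposited table, Cuffdiff). Psmd5 and Psmd9 stood lower, with log2 ratios of -0.05 and -0.12, and the median of the 3 was -0.05.

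Activators open the gate of the core in place of the regulatory particle, and their levels spanned the range from the highest member, Psme1, to Psme4 below the median member. Psme1 and Psme2, which form the interferon-inducible activator ring, were at 1229.8 and 1278 FPKM and at 302 and 278 FPKM. They are adjacent on chromosome 14, with 2.14 kb between their listed positions, and pointed in opposite directions, with log2 ratios of -0.06 for Psme1, whose test failed, and 0.12 for Psme2. The interval of Psme2 was -0.32 to 0.56 (p = 0.595 in the authors' deposited table, Cuffdiff). A pseudogene of it, Psme2b-ps, was listed at 45.7 and 43.5 FPKM, so shared reads leave the value of Psme2 uncertain. The nuclear activator Psme3 was at 171 and 169 FPKM, with the smallest implied standard error of all members, 0.05, and an interval of -0.09 to 0.12. Psme4 was at 50.3 and 51.3 FPKM, with an interval of -0.27 to 0.21.

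**Figure D4:**
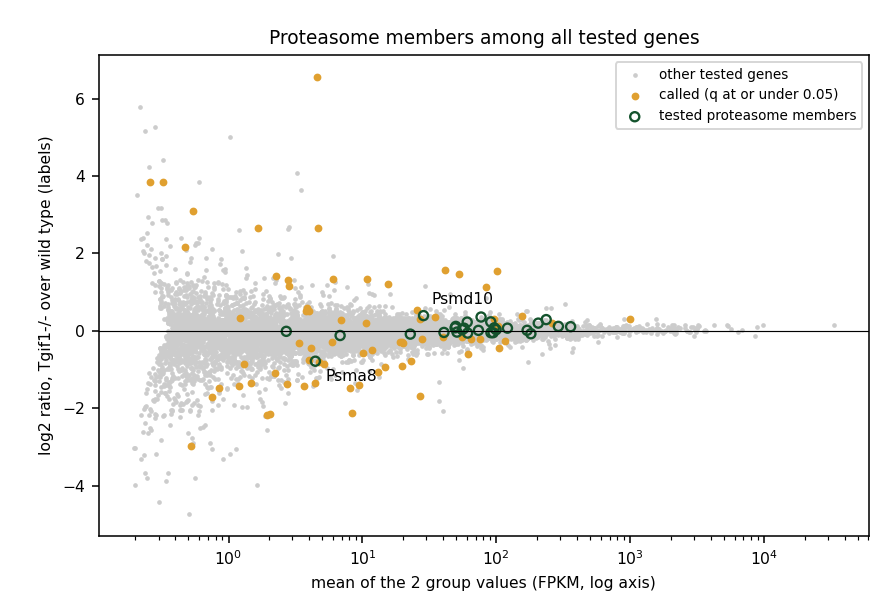
Log2 ratio against mean level (FPKM, log axis) for tested genes with values above 0 in both groups, with called genes in orange and the 27 tested proteasome members ringed. Most members lie at high level close to 0, and Psma8 and Psmd10 are the lowest and the highest of the tested members.

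Failed tests were frequent among the members. They made up 17 of 44 rows (38.6%), with 24.2% of all rows that had at least 1 FPKM in a group. Of the 10 member rows whose listed position was shared with another entry of the table, 7 had failed, and of the 34 with a position of their own, 10 (29.4%). Among all rows with at least 1 FPKM in a group, 35.6% of 3033 on shared positions and 20.5% of 9419 on their own had failed. The regulatory particle lost 9 of 18 rows in this way and the standard core 7 of 14, while the immunoproteasome beta subunits lost none.

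Of 55 genes in the table that work with the proteasome, 34 were tested and 1 was called, where 0.662% of all tested genes were called. Their median log2 ratio was 0.00. By value 28 stood higher and 27 lower. The called gene was Nsfl1c, a cofactor of the p97 unfoldase, at 108 and 98.8 FPKM. Its log2 ratio was 0.13 (1.09-fold) with an implied standard error of 0.02, and the authors' deposited table gave q = 2.46e-05 (Cuffdiff). With the error raised to that of genes at like expression its adjusted p was 1.00, which ended the call. Ufd1l, another p97 cofactor, was at 42.7 and 39.7 FPKM.

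The further subunits Adrm1, a ubiquitin receptor, and Shfm1, the small lid subunit, were at 20.8 and 24.4 FPKM and at 153 and 143 FPKM. Of the assembly factors and the inhibitor Psmf1, none of 4 tested was called, with Psmg4 at 38.3 and 40.7 FPKM and Psmg3 at 17.0 and 18.2 FPKM. Among ubiquitin genes and shuttle factors none of 4 tested was called, and the shuttle Ubqln2 was at 16.9 and 19.3 FPKM. Of the enzymes that act on ubiquitin chains, none of 3 tested was called, with the deubiquitinase Uchl5 at 78.6 and 73.9 FPKM and the ligase Huwe1 at 542 and 593 FPKM. Transcription regulators of subunit genes gave no call among 6 tested: Nfyc was at 52.3 and 61.2 FPKM and Ngly1, needed to activate Nfe2l1, at 27.4 and 23.3 FPKM. Nfe2l1 itself was at 69.1 and 71.2 FPKM. In these 5 lists the Cuffdiff test gave no gene an unadjusted p under 0.05.

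Genes of interferon signalling and class I peptide loading, the setting in which the immunoproteasome is known to act, held no call among 10 tested. Of 16 genes 10 stood higher and 6 lower by value, with a median log2 ratio of 0.02. The class I heavy chain H2-D1 was at 518 and 428 FPKM, a log2 ratio of 0.28 with a standard error of 0.13 (p = 0.0318 and q = 0.756 in the authors' deposited table, Cuffdiff). It was the only gene of this list with an unadjusted p under 0.05, and it belongs to a family of near-identical genes, which leaves its value uncertain.

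Markers of other cell types differed between the groups while the proteasome genes were measured in the same RNA. Of 8 dendritic cell and macrophage markers, 5 stood higher in the group labelled Tgif1-/-, and all 8 summed to 359 and 241 FPKM. That sum was mostly the class II genes H2-Aa and H2-Ab1, and Cd74. These were at 105 and 65.4 FPKM, at 114 and 76.0 FPKM and at 104 and 74.6 FPKM. Itgax (1.87 and 1.87 FPKM), Emr1 (0.691 and 0.826 FPKM) and Csf1r (log2 ratio -0.20) did not stand higher. C1qa did, at 0.833 and 0.405 FPKM. The class II gene H2-Eb1, the 1 called among 4 tested, was at 21.5 and 9.37 FPKM. All 9 mast cell and basophil markers stood higher, 4 of 8 tested were called, and they summed to 462 and 215 FPKM. Of 9 B cell markers 8 stood lower, 4 of 8 tested were called, and they summed to 59.2 and 122 FPKM. All 9 neutrophil markers stood lower, none of 6 tested was called by Cuffdiff with 4 at an unadjusted p under 0.05, and their median log2 ratio was -0.85. Their sum of 3608 and 3978 FPKM was mostly Mpo, at 3055 and 3289 FPKM. No marker was at 0 in either group, and the part of such cells in the immunoproteasome values was not tested. In bulk RNA, fewer cells of a type and less RNA per cell cannot be told apart.

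**Figure D5:**
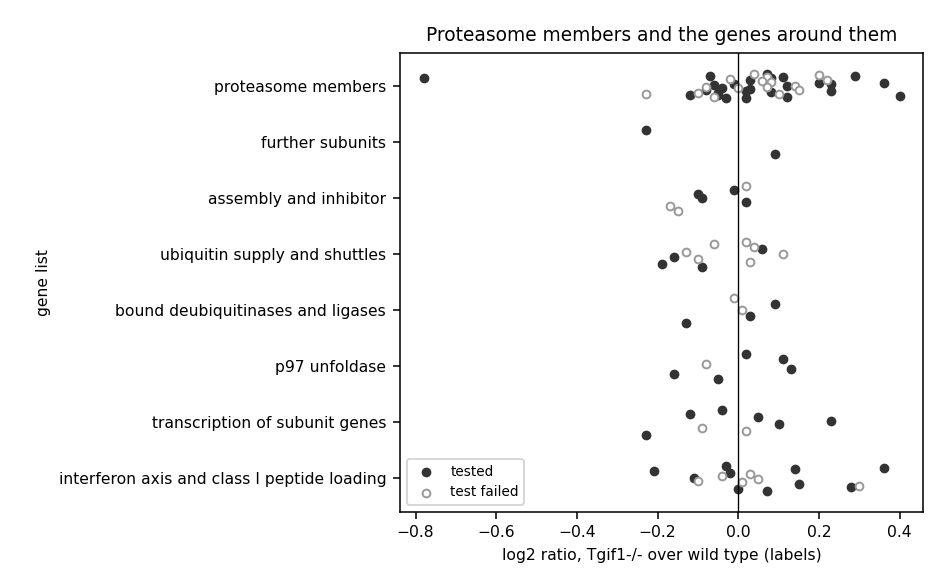
Log2 ratio, Tgif1-/- label over wild-type label, for proteasome members (without the second Psmd14 row, at -2.43) and for 7 lists of genes that work with them, filled where tested and open where the test failed. Points of every list lie on both sides of 0, and Psma8 at -0.78 is the lowest shown.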

How the data were processed

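RNA sequencing of 6 LSK samples was deposited as 1 table of group values. The submitters' processing notes name TopHat and Cuffdiff, without versions, and the build hg19, although the identifiers are mouse; which mouse build was used is not given in these sources. Per the file headers, the authors' FPKM values are 1 per group, and the authors' p-values and q-values come from their comparison. No per-sample columns were present to use, so depth is unknown.

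Log2 ratios were computed from the deposited FPKM, without a pseudocount. The standard error was the log2 fold change divided by the test statistic, and the 95% interval came from it. The deposited p-values matched the normal value of the statistic within 0.001 for all 10683 tested genes with values above 0, and the q-values matched a Benjamini-Hochberg adjustment over 10730 genes. The log2 ratio, and the error and p-value where tested, were given for the 3 tested members with the smallest p in each direction, the catalytic pairs, and Psme1 and Psme2, with 2 group values for every member. Psmd10 and the second Psmd14 row were singled out after their values were seen. Per list of other genes, called members or the 2 tested genes with the smallest p were named, and any others there were chosen after their values were seen. Of the genes this selects, 2 are left out of the text. The members and lists were chosen with earlier results of these data known. Promoters were those of RefSeq (GRCm38.p6). The error floor was run on data simulated from the implied errors, which cannot show whether those errors are too small. Python 3.11.15, numpy 2.4.6, pandas 2.3.3 and scipy 1.17.1 were used.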

Additional observations from a re-analysis of the deposited data

How the results depend on the processing

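The count of called members stayed at 0 with q at or under 0.1, the only alternative run that loosened the call. It was also 0 with q at or under 0.01, at least 1 or 5 FPKM in a group, and 1 row per symbol. Errors raised to the median of 20 expression bins gave 0 as well. Those other settings tighten the call, drop rows or enlarge errors, so they could hardly add a call and are no further check. The median over all members ran from 0.03 to 0.08. That of the immunoproteasome and thymoproteasome subunits ran from 0.21 to 0.25, and those of the alpha and standard beta rings from 0.07 to 0.10 each. Medians near 0 changed sign: the ATPase ring was at -0.04 and the lid at 0.02 over tested rows, and the activators at 0.02 over tested rows and 0.03 after centring. None of the 13 members given with full statistics changed direction with centring, which moves every log2 ratio only by the tested median of -0.03. Pseudocounts of 0.1 or 1, added to both values, change the size of a ratio but cannot change its direction. No paired analysis was possible because the table has 1 value per group and the replicate numbers of the groups differ. Leaving out a replicate could not be run for the same reason. The median model error of a tested member was 0.20 on the log2 scale, and what depth adds to it is unknown.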

Other observations

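The table held 7 further entries whose symbols begin with Psm but fall outside the rule. The assembly chaperones Psmg1, Psmg2, Psmg3 and Psmg4 were at 69.9 and 68.8 FPKM, 32.8 and 33.0 FPKM, 17.0 and 18.2 FPKM, and 38.3 and 40.7 FPKM. The inhibitor Psmf1 was at 35.2 and 39.5 FPKM. Psmc3ip, a meiotic recombination factor named for its binding to Psmc3, was at 27.8 and 32.3 FPKM, and Psme2b-ps was at 45.7 and 43.5 FPKM. The authors' tests of Psmg1, Psmf1, Psmc3ip and Psme2b-ps failed, and the other three were not called.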
